A study of Homo sapiens with 6 samples.

Results

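JCAD, a protein of cell-cell junctions, and 9 core genes of the Hippo-YAP pathway were followed in TC71 cells after knockdown of EHD1. The 10 genes were YAP1 and WWTR1 (which encodes TAZ), TEAD1, TEAD2, TEAD3 and TEAD4, LATS1 and LATS2, the YAP target CCN2, and JCAD. They were taken by symbol from a table of 60676 genes, and the group was selected on the strong fall of JCAD in this same comparison, so the values of JCAD are given below as a description and carry no test. All 10 passed the filter on low counts, as did 16785 genes in all.

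TC71 is an Ewing sarcoma cell line, and EHD1 is an endocytic recycling protein. RNA-seq was performed on 6 libraries, 3 of cells with a non-targeting shRNA (shNTC+Dox) and 3 of cells with an shRNA against EHD1 (shEHD1+Dox). In both groups the lines were polyclonal and selected with puromycin, and the lentiviral shRNA is expressed under doxycycline (Dox). Dox was given at 0.5 µg/ml for 3 days, so exposure to Dox and to lentivirus is shared by control and knockdown. Control and knockdown were different lines with different constructs. Effects of line, integration site or off-target silencing cannot be told apart from loss of EHD1 here. Which EHD1 shRNA was used is not given in the sources used here, and libraries without Dox were not analysed here. The labels do not say that replicates came from separate cultures, so p-values measure only the spread between these libraries, which may be technical.

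In the Hippo pathway, the kinases STK3 and STK4 (MST2 and MST1) activate LATS1 and LATS2, which phosphorylate the coactivators YAP and TAZ and so keep them out of the nucleus or mark them for degradation. Unphosphorylated YAP and TAZ enter the nucleus, bind TEAD transcription factors, often at sites shared with AP-1, and turn on targets such as CCN2. JCAD was first described at endothelial junctions and has been reported to bind LATS2 and restrain it. YAP, TAZ and the LATS kinases are controlled largely through phosphorylation and location, which mRNA counts do not show.

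The promoters of JCAD and CCN2 are shown because JCAD is the gene that fell and CCN2 is the classical TEAD target that was measured low. Each line gives the 250 bases before the RefSeq gene start on GRCh38.p14, 5′ to 3′ on the minus strand, at chr10:30115495-30115744 for JCAD and chr6:131951373-131951622 for CCN2. Capitals mark the TEAD motif GGAATG or TGANTCA, a looser form of the AP-1 motif TGA(C/G)TCA, searched on both strands.
JCAD: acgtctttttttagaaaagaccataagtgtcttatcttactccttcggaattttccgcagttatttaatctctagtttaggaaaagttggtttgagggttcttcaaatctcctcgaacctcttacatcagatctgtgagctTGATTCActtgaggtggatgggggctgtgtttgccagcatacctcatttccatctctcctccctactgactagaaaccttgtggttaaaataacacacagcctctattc
CCN2: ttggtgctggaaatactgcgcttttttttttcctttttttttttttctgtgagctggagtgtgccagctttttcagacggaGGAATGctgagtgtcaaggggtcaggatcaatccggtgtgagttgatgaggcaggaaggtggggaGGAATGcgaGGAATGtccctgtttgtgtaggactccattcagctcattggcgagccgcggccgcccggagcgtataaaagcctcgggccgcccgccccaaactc
The CCN2 stretch held GGAATG at 3 positions, starting at -169, -104 and -95 from the gene start. The JCAD stretch held no GGAATG and held TGANTCA at 1 position, starting at -109. The middle base of this match is T, outside the C or G of the AP-1 motif. The JCAD stretch was 40.8% G or C and the CCN2 stretch 53.2%. The matches in LATS2 and YAP1, and the second of 2 TGANTCA matches in the YAP target F3 (tissue factor, which starts blood coagulation), which start at -223 and -210, are shown for the members and the target whose values are compared below, at chr13:21061560-21061589 on the minus strand, chr11:102110273-102110302 on the plus strand and chr1:94541952-94541980 on the minus strand.
LATS2: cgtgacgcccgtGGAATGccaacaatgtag
YAP1: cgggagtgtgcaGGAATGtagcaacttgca
F3: aatcactggggTGAGTCAtcccttgcagg
RefSeq promoter windows of 250 bases before to 50 after the start were available for 8 of the 10 members, TEAD1 and TEAD4 having no entry. GGAATG was present in 3 of these 8 (YAP1, LATS2 and CCN2) and TGANTCA in 1 (JCAD). Over all 35116 promoter windows, 14.0% held GGAATG and 7.71% held TGANTCA. These matches describe letters and not bound sites.

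The target itself was measured first. EHD1 was at 27.1, 28.0 and 26.3 CPM (counts scaled to a common library size, with TMM as a correction for library composition) in the shNTC+Dox libraries and at 7.54, 7.14 and 9.36 CPM in the shEHD1+Dox libraries, so 29.6% of its level remained. Libraries held 22711235 to 30582187 counts. The first principal component (40.8% of the variance) separated the groups. On the second (22.0%), shNTC+Dox replicate 3 stood apart, at 38.7 against -32.8 and -29.1 for the other shNTC+Dox libraries. To a lesser degree shEHD1+Dox replicate 2 also did, at 24.2 against -2.09 and 1.01 for the other shEHD1+Dox libraries. Values without shNTC+Dox replicate 3 are given where a sign or a call changes, for the genes named by the rule stated with the processing. Of the markers chosen for endothelial cells, where JCAD was first described, 7 of 10 had 3 counts or fewer in every library. These 7 included the defining markers CDH5, PECAM1, VWF and KDR. The other markers, EMCN, CLDN5 and ESAM, were tested and did not pass (edgeR adjusted p = 0.684, 0.785 and 0.376). Summed over all 10, the control libraries held 13.9 to 24.4 CPM and the knockdown libraries 17.7 to 19.9 CPM. EMCN was the largest part of this sum, with a mean of 14.7 CPM in the controls and 16.4 CPM after knockdown. Of 10 Ewing sarcoma markers, 9 were tested, of which CD99 rose and BCL11B and STEAP1 fell, and the summed level, mostly JAK1 and PRKCB, was 2600 to 2870 CPM and 3080 to 3100 CPM. Of 8 fibroblast markers, 7 were tested, of which COL3A1 rose from 194 to 359 CPM (edgeR adjusted p = 0.000732) and DCN fell from 4.85 to 2.40 CPM (edgeR adjusted p = 0.00778), and the sum, of which COL3A1 was the largest part, was 257 to 344 CPM in shNTC+Dox and 448 to 511 CPM in shEHD1+Dox. Blood cell markers summed to 3.34 to 5.74 CPM and 2.10 to 4.88 CPM. The part of these marker shifts in the results below was not tested. In bulk RNA, fewer cells expressing a gene and less of its RNA per cell cannot be told apart.

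JCAD fell to 32.4% of its control level. It was at 35.5, 36.2 and 32.1 CPM in the shNTC+Dox libraries (936, 1004 and 718 counts) and at 12.0, 10.6 and 11.0 CPM in the shEHD1+Dox libraries (343, 259 and 342 counts). The highest shEHD1+Dox library was far below the lowest shNTC+Dox library. The means were 34.6 ± 2.20 and 11.2 ± 0.745 CPM (SD, n = 3 each), a log2 fold change of -1.63 (SE 0.10). Leaving out any 1 library moved this value between -1.68 and -1.59. JCAD (ENSG00000165757) lies at chr10:30012803-30115494 on the minus strand of hg38, and no annotated exon of another gene overlaps its exons, so its counts are not shared with a neighbour. Among all tested genes, 1.74% were lower by at least 2-fold at an adjusted p under 0.05, and 1.08% were higher, but JCAD was chosen for this value and nothing is read from its place among them.

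**Figure D1:**
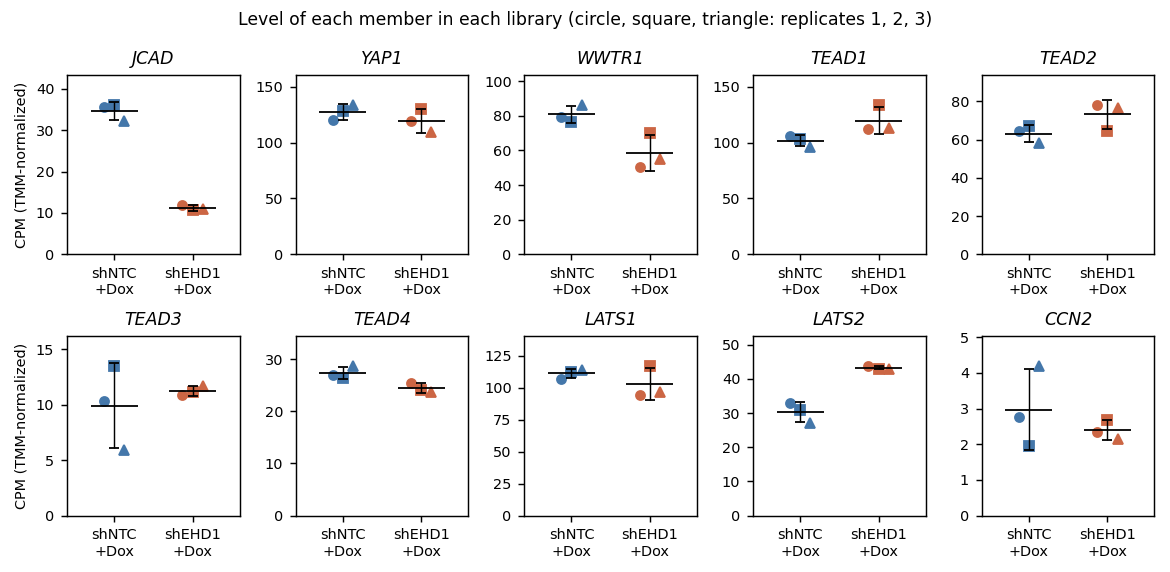
Level of each of the 10 genes in each library, in TMM-scaled CPM on a linear axis from 0 that differs between genes, with the 3 libraries of shNTC+Dox (blue) and of shEHD1+Dox (orange) as points and the mean ± SD as lines. JCAD falls from 32.1 to 36.2 CPM to 10.6 to 12.0 CPM, LATS2 rises from 27.0 to 32.9 CPM to 42.9 to 43.8 CPM, and the points of YAP1, TEAD2, TEAD3, LATS1 and CCN2 overlap between the groups.

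Of the 9 genes other than JCAD, 1 rose (LATS2) and 1 fell (WWTR1) at an adjusted p under 0.05, and none of the 9 changed by 2-fold. Of all tested genes, 8.59% rose and 8.75% fell by the same rule, so 1 of 9 in each direction was near the background. Libraries of the groups did not overlap for 2 genes that were higher in shEHD1+Dox (TEAD1 and LATS2) and 2 that were lower (WWTR1 and TEAD4), against 19.9% and 19.4% of all genes. The median log2 fold change of the 9 was -0.10, beside 0.00 over all genes. With 3 libraries against 3, the smallest p that an exact permutation test of a single gene can give is 0.1.

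LATS2, the kinase that JCAD has been reported to bind, was higher after EHD1 knockdown. Its level was 32.9, 30.8 and 27.0 CPM in shNTC+Dox and at 43.8, 43.0 and 42.9 CPM in shEHD1+Dox. All 3 shEHD1+Dox libraries were above all 3 shNTC+Dox libraries, and their spread was small. The means were 30.2 ± 3.00 and 43.2 ± 0.496 CPM (SD, n = 3 each), a 1.43-fold rise (log2 fold change 0.51, SE 0.09, 95% interval 0.32 to 0.71, edgeR adjusted p = 0.00549, exact permutation p = 0.1). The call held when any 1 library was left out, with log2 fold changes of 0.44 to 0.58 and edgeR adjusted p of 0.00214 to 0.0298. LATS2 (ENSG00000150457) lies at chr13:20973036-21061586 on the minus strand.

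LATS1, its paralogue, did not pass the test. It was at 107, 112 and 114 CPM in shNTC+Dox and at 93.9, 117 and 96.8 CPM in shEHD1+Dox, so the groups overlapped. The log2 fold change was -0.11 (SE 0.09, 95% interval -0.32 to 0.09, edgeR adjusted p = 0.423, exact permutation p = 0.4). LATS1 (ENSG00000131023) lies at chr6:149658153-149718105 on the minus strand and shares 257 exon bases with a gene on the opposite strand.

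Of the coactivators, WWTR1 was lower while YAP1 did not pass the test. WWTR1 was at 79.2, 76.6 and 86.5 CPM in shNTC+Dox and at 50.3, 69.9 and 55.1 CPM in shEHD1+Dox. The groups did not overlap, although shEHD1+Dox replicate 2 lay close to the controls. The means were 80.8 ± 5.15 and 58.4 ± 10.2 CPM (SD, n = 3 each), and the log2 fold change was -0.47 (SE 0.12, 95% interval -0.74 to -0.20, edgeR adjusted p = 0.0295, exact permutation p = 0.1). This call was lost in 4 of the 6 omissions of 1 library, namely without shNTC+Dox replicate 1 or 3 or without shEHD1+Dox replicate 1 or 3, where the log2 fold change was as small as -0.37 and the edgeR adjusted p as high as 0.107. Without shNTC+Dox replicate 3, the control library that stood apart, the log2 fold change was -0.42 (edgeR adjusted p = 0.0609). Without shEHD1+Dox replicate 2 it was -0.62 (edgeR adjusted p = 0.00913). WWTR1 (ENSG00000018408, chr3:149517235-149736714, minus strand) shares 756 exon bases with the antisense gene WWTR1-AS1, whose own counts were 6, 5 and 4 in the control libraries against 9, 12 and 10 after knockdown.

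YAP1 was at 120, 128 and 134 CPM in shNTC+Dox and at 119, 130 and 109 CPM in shEHD1+Dox. The groups overlapped, with means of 127 ± 7.16 and 119 ± 10.5 CPM (SD, n = 3 each). The log2 fold change was -0.10 (SE 0.08, 95% interval -0.28 to 0.09, edgeR adjusted p = 0.457, exact permutation p = 0.4). YAP1 (ENSG00000137693) lies at chr11:102110447-102233424 on the plus strand and shares 639 exon bases with unnamed genes on the opposite strand.

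The 4 TEAD genes, which encode the DNA-binding partners of YAP and TAZ, did not pass the test. TEAD1 was at 106, 103 and 96.4 CPM in shNTC+Dox and at 112, 134 and 113 CPM in shEHD1+Dox. The groups did not overlap, yet the log2 fold change of 0.23 (SE 0.08, 95% interval 0.04 to 0.43) had an edgeR adjusted p of 0.0913. TEAD2 was at 64.5, 66.9 and 58.1 CPM and then at 78.4, 64.7 and 76.7 CPM, with 1 shEHD1+Dox library inside the control range. Its log2 fold change was 0.21 (SE 0.09, 95% interval 0.00 to 0.43, edgeR adjusted p = 0.152). TEAD4 was at 27.0, 26.4 and 28.7 CPM and then at 25.5, 24.1 and 23.7 CPM, all below the controls. Its log2 fold change was -0.16 (SE 0.08, 95% interval -0.35 to 0.02, edgeR adjusted p = 0.208).

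TEAD3 depended on 1 library. It was at 10.3, 13.5 and 5.90 CPM in shNTC+Dox and at 10.9, 11.1 and 11.7 CPM in shEHD1+Dox, the low value being shNTC+Dox replicate 3. The log2 fold change was 0.18 (SE 0.26, 95% interval -0.41 to 0.76, edgeR adjusted p = 0.678), and -0.09 without that library (edgeR adjusted p = 0.695). On hg38, TEAD1 (ENSG00000187079) lies at chr11:12674421-12944737 on the plus strand and TEAD2 (ENSG00000074219) at chr19:49340595-49362457 on the minus strand, where it shares 319 exon bases with CD37. TEAD3 (ENSG00000007866) lies at chr6:35473597-35497079 on the minus strand and TEAD4 (ENSG00000197905) at chr12:2959330-3040676 on the plus strand.

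CCN2, which encodes a secreted matricellular protein and is a standard readout of YAP and TAZ activity, was low in every library. It had 73, 54 and 94 counts in shNTC+Dox and 67, 66 and 67 counts in shEHD1+Dox, or 2.77, 1.95 and 4.20 CPM and 2.35, 2.69 and 2.16 CPM. The groups overlapped, and the highest value was shNTC+Dox replicate 3. The log2 fold change was -0.30 (SE 0.29, 95% interval -0.96 to 0.35, edgeR adjusted p = 0.511, exact permutation p = 0.6), and 0.02 without that library (edgeR adjusted p = 0.959). A fall or a modest rise within that interval was not resolved. CCN2 (ENSG00000118523) lies at chr6:131948176-131951372 on the minus strand and shares 278 exon bases with LINC01013.

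Per kilobase of exon, TEAD2 and YAP1 were the most abundant of the 10 genes in shNTC+Dox, at 21.2 ± 1.53 and 20.2 ± 1.14 CPM per kb (SD, n = 3). LATS1 and TEAD4 followed at 13.1 ± 0.455 and 12.0 ± 0.525, then WWTR1 and TEAD1 at 9.67 ± 0.616 and 9.52 ± 0.466, LATS2 at 5.39 ± 0.534, JCAD at 3.62 ± 0.230, TEAD3 at 3.25 ± 1.26 and CCN2 at 1.27 ± 0.488 CPM per kb. The ranges of TEAD2 and YAP1, of LATS1 and TEAD4, of WWTR1 and TEAD1, and of JCAD and TEAD3 overlapped, so their order was not resolved. In shEHD1+Dox, JCAD was at 1.17 ± 0.0778 CPM per kb, beside 1.03 ± 0.115 for CCN2. The length used was that of all annotated exons of a gene joined, and the order between genes depends on it. Per kilobase, TEAD2 had a mean share of 46.0% of the TEAD family in shNTC+Dox and TEAD1 20.7%. Without division by length, TEAD1 led with 50.4%, and TEAD2 had 31.2%.

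The makeup of each family was also described, as shares that carry no test. LATS2 made up 31.8%, 29.4% and 26.3% of the per-kilobase level of LATS1 and LATS2 together in the control libraries and 41.4%, 35.8% and 40.1% after knockdown. YAP1 made up 66.7%, 68.9% and 67.2% of YAP1 and WWTR1 in the controls and 75.7%, 71.1% and 72.3% after knockdown. TEAD4 made up 25.4%, 24.1% and 29.3% of the 4 TEAD genes and then 21.7%, 21.9% and 20.6%. These 3 shares did not overlap between the groups, whereas those of TEAD1, TEAD2 and TEAD3 did. They follow from the gene values above and add no independent evidence. The share of YAP1 was higher although YAP1 did not pass the test, since WWTR1 was lower, and TEAD4 did not pass either.

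**Figure D2:**
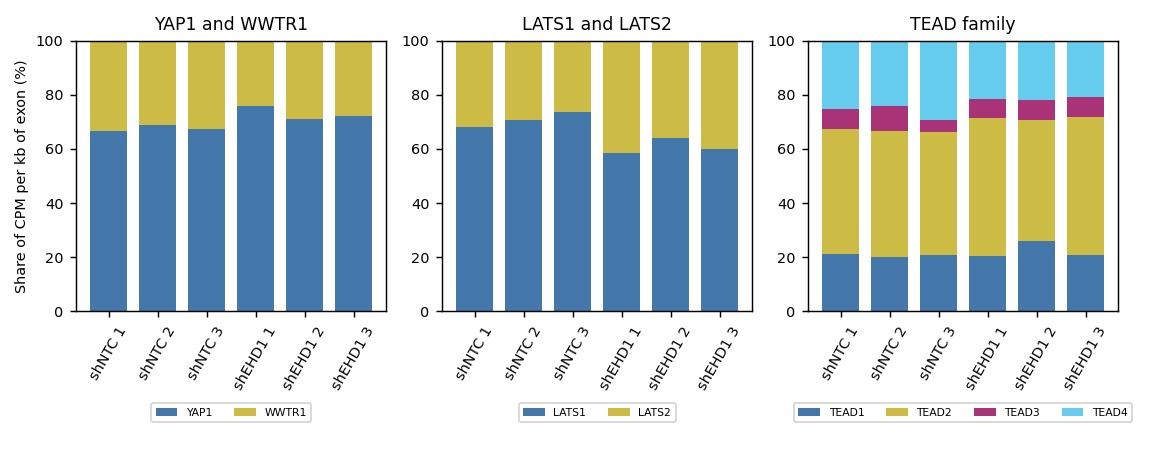
Share of each family's summed level per kilobase taken by each member, in percent, as stacked bars for each library of shNTC+Dox and shEHD1+Dox. The share of LATS2 goes from a mean of 29.2% to 39.1%, that of YAP1 from 67.6% to 73.1%, and that of TEAD4 from 26.3% to 21.4%.

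The surroundings of the 10 genes were described with 7 lists, of other Hippo-YAP pathway genes, YAP and TAZ targets, AP-1 factors and junction genes. The lists held 94 genes, 85 of them tested. Of these 85, 15 rose and 10 fell at an adjusted p under 0.05, which is 17.6% and 11.8%, beside 8.59% and 8.75% of all genes. No test of the lists was made, so nothing particular to the pathway is drawn from this. The same shares of all genes, 8.59% and 8.75%, are the background for the counts in each list and among the neighbours of JCAD below, and among the markers above.

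Of 14 tested genes of the kinase core, 2 rose and 3 fell (median log2 fold change 0.12 over the 14). TAOK3, one of the TAO kinases that activate STK3 and STK4, was at 23.3, 23.0 and 17.8 CPM in shNTC+Dox and at 42.7, 44.0 and 41.9 CPM in shEHD1+Dox. STK3 was at 11.5, 11.7 and 9.12 CPM and then at 18.1, 18.0 and 16.5 CPM. For both kinases every shEHD1+Dox library was above every control. The log2 fold changes were 1.00 (SE 0.11, edgeR adjusted p = 0.000763) for TAOK3 and 0.70 (SE 0.13, edgeR adjusted p = 0.00692) for STK3. MOB1B, a cofactor of LATS1 and LATS2, fell from 51.6 to 39.8 CPM (log2 fold change -0.37, edgeR adjusted p = 0.00829). TAOK2 fell from 64.3 to 51.0 CPM (-0.33, edgeR adjusted p = 0.0449), and MAP4K3, a kinase that can act on LATS in parallel to STK3 and STK4, from 49.8 to 41.8 CPM (-0.25, edgeR adjusted p = 0.0335). Of the best known core genes, STK4 (-0.16, edgeR adjusted p = 0.174), its scaffold SAV1 (0.21, edgeR adjusted p = 0.159) and MOB1A (0.13, edgeR adjusted p = 0.265) did not pass. The count of 5 genes past the threshold in this list became 7 without shNTC+Dox replicate 3, and 3 without shNTC+Dox replicate 1 or any 1 of the shEHD1+Dox libraries.

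Of 16 tested upstream scaffolds and polarity genes, 1 rose and 1 fell (median 0.06). WWC3, of the KIBRA family that promotes LATS activity, was at 7.06, 8.30 and 9.08 CPM in shNTC+Dox and at 3.79, 3.10 and 2.94 CPM in shEHD1+Dox, a log2 fold change of -1.31 (SE 0.18, edgeR adjusted p = 0.00208). FAT4, a giant atypical cadherin, rose from 149 ± 11.2 to 205 ± 27.2 CPM (SD, n = 3 each, log2 fold change 0.46, SE 0.10, edgeR adjusted p = 0.0170). NF2 (merlin), which recruits LATS to the membrane, did not pass (-0.07, edgeR adjusted p = 0.585). Without shNTC+Dox replicate 3, 5 genes of this list passed.

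Of 15 tested genes of STRIPAK, a phosphatase complex that inactivates STK3 and STK4, and of LIM proteins that restrain LATS, 2 rose and 3 fell (median -0.07). MOB4 fell from 64.1 to 47.9 CPM (log2 fold change -0.42, edgeR adjusted p = 0.0146), with 698 exon bases shared with the readthrough gene HSPE1-MOB4. SIKE1 fell from 122 to 95.9 CPM (-0.35, edgeR adjusted p = 0.0193) and FGFR1OP2 from 63.2 to 51.4 CPM (-0.30, edgeR adjusted p = 0.0317). The phosphatase subunit PPP2R1A rose from 228 to 276 CPM (0.28, edgeR adjusted p = 0.0224) and the scaffold STRN3 from 63.0 to 75.7 CPM (0.26, edgeR adjusted p = 0.0272). The complex thus had members in both directions. By edgeR, 0 of the 15 passed without shEHD1+Dox replicate 1 or without shEHD1+Dox replicate 3, where 6 had an unadjusted p under 0.05 each time and DESeq2 was not run. The count was 1 without shNTC+Dox replicate 1 or 2 and 3 without shEHD1+Dox replicate 2.

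Of 8 tested genes for the turnover of YAP, TAZ or LATS kinases and for TEAD cofactors of the VGLL family, 4 rose and 0 fell by edgeR (median 0.25). DESeq2 also called 0 lower, and 2 of the 8 were lower at an unadjusted p under 0.05 by either tool. VGLL4, which competes with YAP for TEAD binding, was at 25.2, 26.4 and 28.8 CPM in shNTC+Dox and at 42.9, 41.7 and 43.0 CPM in shEHD1+Dox, with no overlap. The log2 fold change of VGLL4 was 0.67 (SE 0.08, edgeR adjusted p = 0.00116), and it shares 1597 exon bases with ATG7, whose own change had an edgeR adjusted p of 0.267. BTRC, the ubiquitin ligase subunit that recognizes phosphorylated YAP and TAZ, rose from 42.6 ± 3.08 to 58.6 ± 1.75 CPM (SD, n = 3 each, 0.46, SE 0.08, edgeR adjusted p = 0.00527). ITCH, a ubiquitin ligase reported to act on LATS1, rose from 128 to 152 CPM (0.25, edgeR adjusted p = 0.0252), and FBXW11, a close relative of BTRC, from 75.6 to 89.7 CPM (0.25, edgeR adjusted p = 0.0493). VGLL3 (log2 fold change -0.16, edgeR adjusted p = 0.398) did not pass. The count of 4 became 2 without shNTC+Dox replicate 1 or 2 or without shEHD1+Dox replicate 1 or 3.

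**Figure D3:**
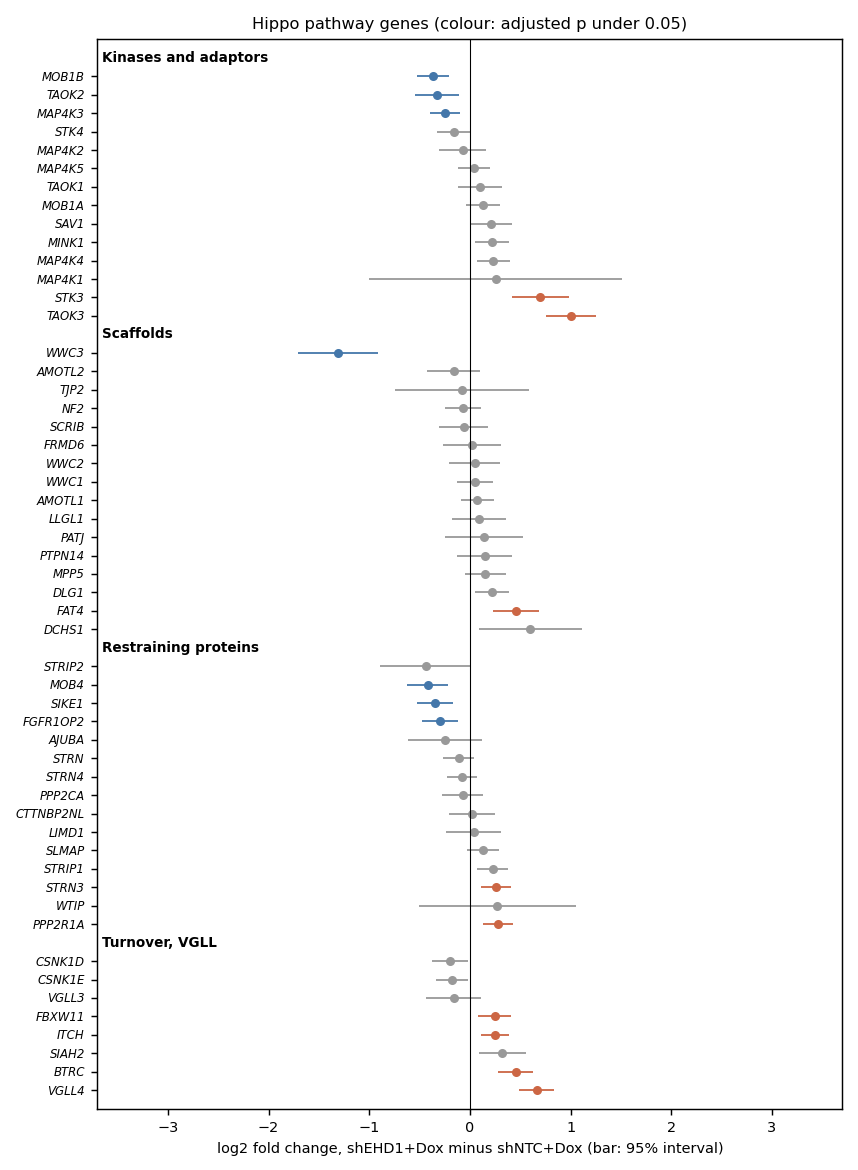
Log2 fold change of shEHD1+Dox against shNTC+Dox for the genes of the upstream and regulatory lists, with 95% intervals from edgeR, grouped by list. TAOK3 lies at 1.00, VGLL4 at 0.67 and WWC3 at -1.31, and colored points are those with an adjusted p under 0.05.

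Of 20 genes widely used as YAP and TAZ targets, 16 were tested, and 2 rose and 1 fell (median 0.12). MYOF (myoferlin, a membrane repair protein) was at 5.12, 4.44 and 3.40 CPM in shNTC+Dox and at 10.9, 10.9 and 11.7 CPM in shEHD1+Dox, 2.58-fold higher (log2 fold change 1.37, SE 0.17, edgeR adjusted p = 0.00140). GADD45A, a stress and DNA damage response gene, was at 9.91, 9.31 and 10.4 CPM and then at 17.2, 18.1 and 18.3 CPM (0.86, SE 0.10, edgeR adjusted p = 0.00126). F3 went the other way, from 23.0, 21.5 and 25.4 CPM to 14.6, 14.2 and 13.1 CPM (-0.74, SE 0.10, edgeR adjusted p = 0.00259). The called targets thus moved in both directions, and these 3 kept their call when any 1 library was left out. Without shNTC+Dox replicate 3, 5 targets passed.

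The targets most often used as readouts did not pass the test or were not expressed at a testable level. CCN1, a secreted relative of CCN2, was at 5.12, 6.39 and 6.48 CPM in shNTC+Dox and at 5.54, 5.92 and 5.91 CPM in shEHD1+Dox, with overlapping groups and a log2 fold change of -0.05 (SE 0.16, 95% interval -0.40 to 0.30, edgeR adjusted p = 0.855), or 0.01 without shNTC+Dox replicate 3. ANKRD1 had 0, 0 and 3 counts in shNTC+Dox and 0 in every shEHD1+Dox library, at or under the floor of 3 counts in all of them. AMOTL2, which also binds YAP and is itself a target, went from 18.9 to 16.8 CPM (-0.16, SE 0.12, edgeR adjusted p = 0.383). AXL, a receptor tyrosine kinase, was low, at 0.789 and 0.860 CPM (0.12, SE 0.43, edgeR adjusted p = 0.877), or -0.12 without that library. NT5E was at 0.342, 0.505 and 1.79 CPM in shNTC+Dox and at 2.67, 2.41 and 2.84 CPM in shEHD1+Dox, with no overlap. Its log2 fold change was 1.61 with an interval above 0 (0.42 to 2.81), but it did not pass (edgeR adjusted p = 0.0691). The highest control was shNTC+Dox replicate 3, and the value of NT5E without that library is not given here. TGFB2 was low, with an interval of -3.32 to 0.72 (edgeR adjusted p = 0.349), so a change in it was not resolved.

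AP-1 factors share many enhancers with YAP and TEAD. Of 8 tested, 1 rose and 1 fell (median 0.26). JUN was at 8.65, 12.6 and 7.60 CPM in shNTC+Dox and at 24.0, 20.6 and 19.3 CPM in shEHD1+Dox (log2 fold change 1.14, SE 0.19, edgeR adjusted p = 0.00486). FOSL2 was at 8.20, 8.12 and 11.7 CPM and then at 3.09, 4.16 and 3.61 CPM (-1.37, SE 0.20, edgeR adjusted p = 0.00292). Both changes exceeded 2-fold, in opposite directions, with no overlap between the groups. Among the searched promoters of members and targets, those of JCAD, F3 and ANKRD1 held TGANTCA. Of these matches, only that of F3 at -210 (TGAGTCA) had C or G as the middle base. This was 1 of 8 members and 2 of 14 targets with a promoter window, beside 7.71% of all windows. JCAD and F3 were both lower in shEHD1+Dox, which is a description of 2 genes picked in part for their fall, and ANKRD1 was at the floor. A link to AP-1 was not tested.

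**Figure D4:**
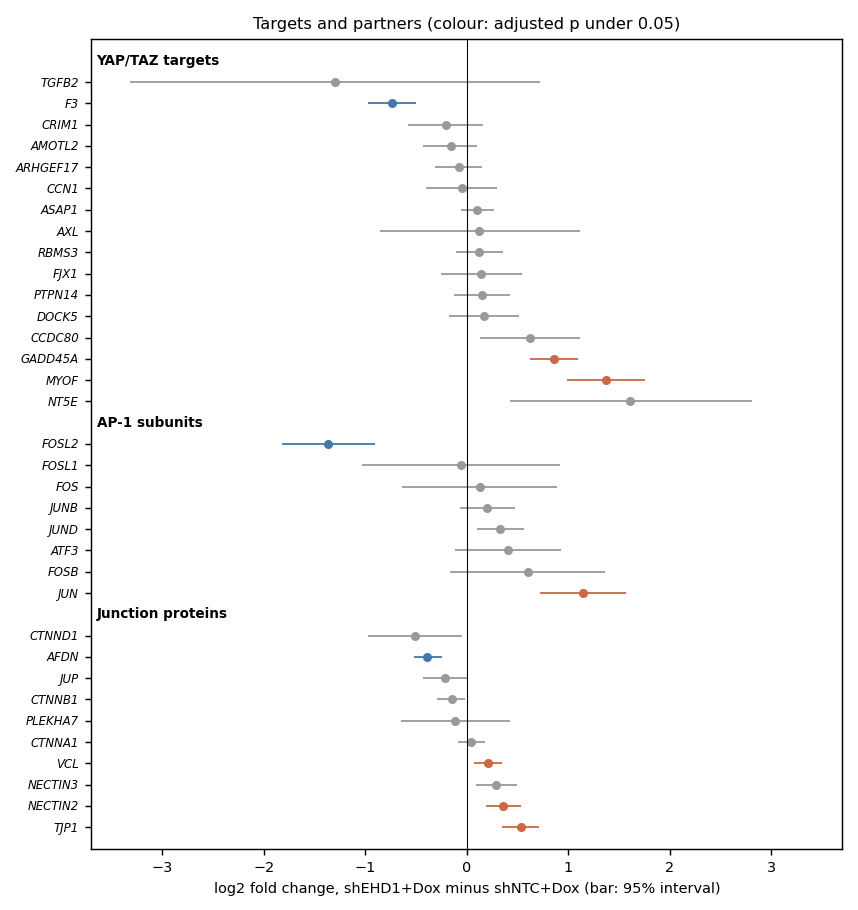
Log2 fold change of shEHD1+Dox against shNTC+Dox with 95% edgeR intervals for YAP and TAZ targets, AP-1 genes and junction genes. MYOF lies at 1.37, JUN at 1.14, F3 at -0.74 and FOSL2 at -1.37, while the interval of CCN1 (-0.40 to 0.30) crosses 0.

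JCAD sits at cell junctions, and of 10 tested genes of adherens and tight junctions 3 rose and 1 fell (median -0.04), with 7 in all past the threshold by DESeq2 and 2 by edgeR without shEHD1+Dox replicate 1 or 3. TJP1 (ZO-1), a scaffold of tight junctions, rose from 55.1 ± 2.11 to 79.5 ± 6.34 CPM (SD, n = 3 each, log2 fold change 0.53, SE 0.08, edgeR adjusted p = 0.00318). The adhesion receptor NECTIN2 rose from 32.4 to 41.6 CPM (0.36, edgeR adjusted p = 0.0139), and VCL (vinculin) from 192 to 222 CPM (0.21, edgeR adjusted p = 0.0487), the latter with 1109 exon bases shared with AP3M1. AFDN (afadin), which links nectins to actin, fell from 148 ± 2.76 to 114 ± 3.40 CPM (SD, n = 3 each, -0.39, SE 0.06, edgeR adjusted p = 0.00407). Across the 7 lists, 14 of the 25 genes past the threshold kept it in all 6 omissions of 1 library, TAOK3, STK3, VGLL4, BTRC, WWC3, MYOF, GADD45A, F3, JUN, FOSL2, TJP1 and AFDN among them.

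The fall of JCAD was set beside its chromosomal neighbours. Within 1 Mb of its start the table listed 37 genes, of which 8 were tested, and by edgeR 0 rose and 1 fell. DESeq2 also called 0 higher, and 1 was higher at an unadjusted p under 0.05 by either tool. The one that fell was SVIL-AS1, at -706 kb, from 51.6 ± 4.69 to 37.3 ± 1.69 CPM (SD, n = 3 each, log2 fold change -0.47, SE 0.09, edgeR adjusted p = 0.00768). In GENCODE release 44 its identifier covers 122 exon bases, all shared with another gene model of that name, so its counts are uncertain. The closest tested neighbours by start, AL353796.1 (191 kb, log2 fold change -0.28, edgeR adjusted p = 0.613), MTPAP (259 kb, -0.18, edgeR adjusted p = 0.173) and MAP3K8 (319 kb, 0.32, edgeR adjusted p = 0.281), did not pass. SVIL (0.23), ZNF438 (-0.36) and the pseudogenes SVIL2P (0.63) and CKS1BP2 (-0.05) did not pass either, with edgeR adjusted p of 0.153, 0.238, 0.175 and 0.901. Without shNTC+Dox replicate 3, AL353796.1 was at 0.17, SVIL at 0.12 and SVIL2P at 0.36. No tested neighbour fell as far as JCAD, but JCAD was chosen for its fall, so nothing is read from its place among them.

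**Figure D5:**
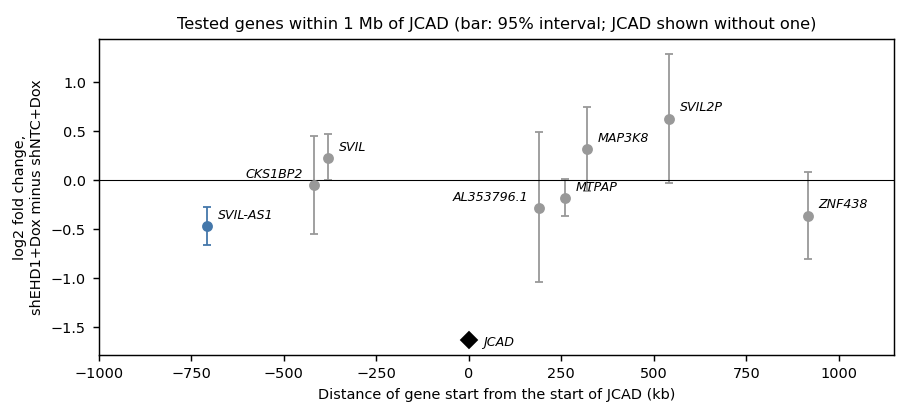
Log2 fold change with 95% edgeR intervals for the tested genes within 1 Mb of the start of JCAD, against the distance of their start from it in kb. JCAD, chosen for its fall, is at -1.63 (shown without an interval), and its neighbours lie between -0.47 and 0.63.

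Genes with a mean of at least 1 CPM and no clone name as symbol were ranked by likeness to JCAD over the 6 libraries. The closest were ZMAT4 (Pearson r 0.9994 in log2 CPM), CDK16 (0.9978), DCAF7 (0.9977), CACNA1G (0.9976) and ABCA5 (0.9976). With 3 libraries at each of 2 levels, any gene that falls evenly gives a high r, and no p is given. ZMAT4 went from 4.53 ± 0.547 to 1.02 ± 0.0934 CPM (SD, n = 3 each), while the much more abundant DCAF7, a scaffold of WD40 repeats, went from 346 to 145 CPM.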

How the data were processed

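RNA-seq was analysed in 6 TC71 libraries, 3 shNTC+Dox and 3 shEHD1+Dox, grouped by the sample labels. The values are gene-level read counts, unnormalized whole numbers as the authors deposited them. Their methods name hisat2 on hg38 with Ensembl annotations and StringTie, while their submitters' processing notes name STAR 2.7.3a and DESeq2, so the aligner behind the counts is not certain, and how counts were derived is not given in the sources used here. The library kit does not keep strand, so a gene and its antisense partner cannot be separated where their exons overlap.

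Library totals were 22711235 to 30582187 counts. A gene entered the test if 3 or more libraries had 10 or more counts for it, which left 16785. After TMM scaling, the quasi-likelihood test of edgeR 4.0.16 (robust glmQLFit, then glmQLFTest, in R 4.3.3) compared the groups, and p was adjusted by Benjamini-Hochberg across all genes tested. The threshold was an adjusted p of 0.05, joined to a 2-fold criterion where stated. A prior count of 2 was used for log2 CPM, and 3 counts were taken as the floor. Intervals and floors cover counting error or library spread only. Single genes other than JCAD also had exact two-sided permutation tests. Gene positions came from GENCODE release 44, which held 60357 of the identifiers (99.5%), and promoters from RefSeq on GRCh38.p14.

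The 10 genes, the pathway lists and the marker lists were chosen with earlier results of these data known. Named were all 10 genes and in each list the genes past the threshold (at most the 5 largest with a mean of at least 1 CPM). Also named were CCN1, ANKRD1, AMOTL2 and AXL, the tested genes within 1 Mb of the start of JCAD, and EHD1. The last were the 5 genes closest to JCAD in pattern, with a mean of at least 1 CPM and no clone name as symbol. Genes named beside these that did not pass were chosen after their values were seen. Alternatives were DESeq2 1.42.0, its size factors, no filter, a filter of 10 counts in every library and a prior count of 0.5. Others were a replicate block, leaving out each library, and family shares without division by exon length.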

Additional observations from a re-analysis of the deposited data

How the results depend on the processing

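The 572 values of log2 fold change under the alternatives, over 52 genes, kept their direction and side of the threshold in 501 cases, lost the threshold in 64 and changed sign in 7. JCAD carries no test, and its values were counted as kept where they moved by less than 1 pooled SD of its log2 CPM. The 52 include EHD1 and the 5 genes closest to JCAD in pattern, which kept their call in all 6 omissions. These 5 were picked for their likeness to JCAD over the same 6 libraries, so their kept calls were largely fixed by that choice. Their values, and those of JCAD and EHD1, are part of the 572. Sign changes were in genes that had not passed: without shNTC+Dox replicate 3, TEAD3 (-0.09), CCN2 (0.02), CCN1 (0.01), AL353796.1 (0.17) and AXL (-0.12), without shEHD1+Dox replicate 1, AXL (-0.11), and without shNTC+Dox replicate 1, CKS1BP2 (0.00). Over the 6 omissions they ranged from -0.09 to 0.46 for TEAD3, -0.54 to 0.02 for CCN2, -0.15 to 0.01 for CCN1, -0.12 to 0.50 for AXL, -0.13 to 0.00 for CKS1BP2 and -0.51 to 0.17 for AL353796.1. The cause was not tested. Genes called at 2-fold numbered 473, 466 with DESeq2 and 293 to 452 when 1 library was left out, the lowest without shEHD1+Dox replicate 3. Members past the threshold besides JCAD (2) ranged from 1 to 2, the kinase core (5) from 3 to 7, scaffolds (2) from 2 to 5, STRIPAK and LIM genes (5) from 0 to 5, turnover genes (4) from 2 to 5, targets (3) from 3 to 5, AP-1 (2) from 2 to 2 and junction genes (4) from 2 to 5, with 7 by DESeq2. With fewer libraries, fewer degrees of freedom were left.

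A fit that added the replicate block called 365 genes at 2-fold, and past the adjusted p alone 1 member (LATS2, adjusted p = 0.0195, while WWTR1 had 0.0530), 3 kinase core, 2 STRIPAK or LIM and 2 turnover genes. Deviations of same-numbered libraries correlated at 0.0720, -0.0593 and -0.0448, which gave no sign of pairing. With 3 libraries per group, these values cannot exclude it. The cause of the losses was not tested. CCN2 had 54 to 94 counts per library, and the part of low counts in its wide interval was not tested.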

Other observations

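Paralogue pairs of the pathway, picked after their values were seen, were also compared within each library, where depth and scaling cancel. The log2 ratio of TAOK3 to TAOK2 went from -1.60 ± 0.40 in shNTC+Dox to -0.25 ± 0.07 in shEHD1+Dox (SD, n = 3 each), that of STK3 to STK4 from -2.98 ± 0.22 to -2.11 ± 0.14, and that of LATS2 to LATS1 from -1.88 ± 0.19 to -1.24 ± 0.18. The ratio of MOB1B to MOB1A went the other way, from -2.28 ± 0.10 to -2.78 ± 0.06, as did that of WWC3 to WWC2, from -1.84 ± 0.17 to -3.20 ± 0.05. YAP1 to WWTR1 went from 0.66 ± 0.08 to 1.04 ± 0.18. In all 6 pairs the libraries of the groups did not overlap, which was partly fixed by how the pairs were picked, and no test was made.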
